A study of Rattus norvegicus with 4 samples.

Results

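Solute carriers are membrane proteins that move sugars, amino acids, nucleosides, vitamins and ions across cell membranes, and 47 of them, with the calcium pump gene Atp2a1, were measured in rat liver RNA on arrays after ligation of the common bile duct. The 48 genes were chosen by symbol from the array's probe table, as symbols that begin with Slc and a digit or with the prefixes of potassium, sodium, calcium and chloride channels, sodium-potassium pumps and calcium pumps. The carriers Slc10a1, Slc22a8 and Slc13a3 were left out of the set. The 48 genes were read by 85 of the 1936 probes, and they are 48 of the 958 genes that the table names with a single symbol. No probe (0 of 1936) carried a symbol beginning with Kcn, Scn, Cacn, Clcn, Atp1a, Atp1b or Atp2b, so the set holds no ion channel, and 485 probes had no name in the table. Substrate classes were assigned by carrier family.

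Both groups were male Sprague-Dawley rats of 250 to 300 g with free access to food and water. In one group the common bile duct was ligated between liver and intestine, and in the other, the sham group, the duct was exposed but not tied, and both were killed 12 h later. Each group is 1 pool of right lateral lobe RNA from 3 rats, so animals cannot be told apart. Each of 4 two-colour cDNA arrays carried both pools, with the ligated pool in Cy5 on arrays 1 and 3 and in Cy3 on arrays 2 and 4. P-values therefore do not measure the spread between rats. They rest on the spread between arrays of the same dye orientation, because the difference between the orientations is fitted. The variance is also drawn partly from all features measured. Such arrays could be technical repeats made with the same RNA.

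A hepatocyte faces blood on its sinusoidal side and bile on its canalicular side, and carriers on each side set what it takes up and what it releases. Some carriers move a substrate down its gradient, and others couple it to sodium, to protons or to an exchanged ion. Many families also have members that work mainly in kidney, intestine or nerve endings, and a ratio of 2 pools does not show whether such a gene is expressed in liver.

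Values are log2 ratios of the ligated over the sham pool, relative to the median of each array, so 0 means that a probe had the ratio of the median probe. The arrays give no level of any gene, no signal over background and no comparison of levels between genes. In whole liver, fewer cells of a type and less RNA per cell cannot be told apart. The ratio is read as ligation over sham because the labels place the ligated pool in channel 2 on each array. This direction is taken from the labels and is not stated, and the base of the logarithm, taken as 2, is not stated either. Over probes, Pearson's r was 0.93 between arrays 1 and 3 and 0.94 between arrays 2 and 4. Between arrays of opposite dye orientation it ran from -0.45 to -0.28. The deposited medians of arrays 1 to 4 were -1.26, 0.43, -0.96 and 0.26, so their sign changed with the dye. Which reading is right was not tested.

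Of the 48 genes, 7 were lower and 3 were higher in the ligated pool at a limma adjusted p under 0.05. Those were 14.6% and 6.25% of the set, where 15.4% of all 958 genes were lower and 11.7% were higher, so the counts lie near or below the background. The median of the 48 genes was -0.01 (-0.00947), and that of all genes was -0.01 (-0.013). The lower genes were the nucleoside carriers Slc28a2 and Slc29a2, the folate carrier Slc46a1, the sulfate exchanger Slc26a1, the copper carrier Slc31a1, the glutamate carrier Slc1a2 and the amino acid exchanger subunit Slc7a7. The higher genes were the bicarbonate cotransporter Slc4a4, the vitamin carrier Slc5a6 and the lysosomal peptide carrier Slc15a4. With the ratio read as ligation over sham and the logarithm as base 2, 1 of 48 genes (2.08%) reached 1.5-fold, against 5.85% of all genes. Read as Cy5 over Cy3 instead, 13 of 48 (27.1%) would reach it, against 26.5% of all genes.

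**Figure D1:**
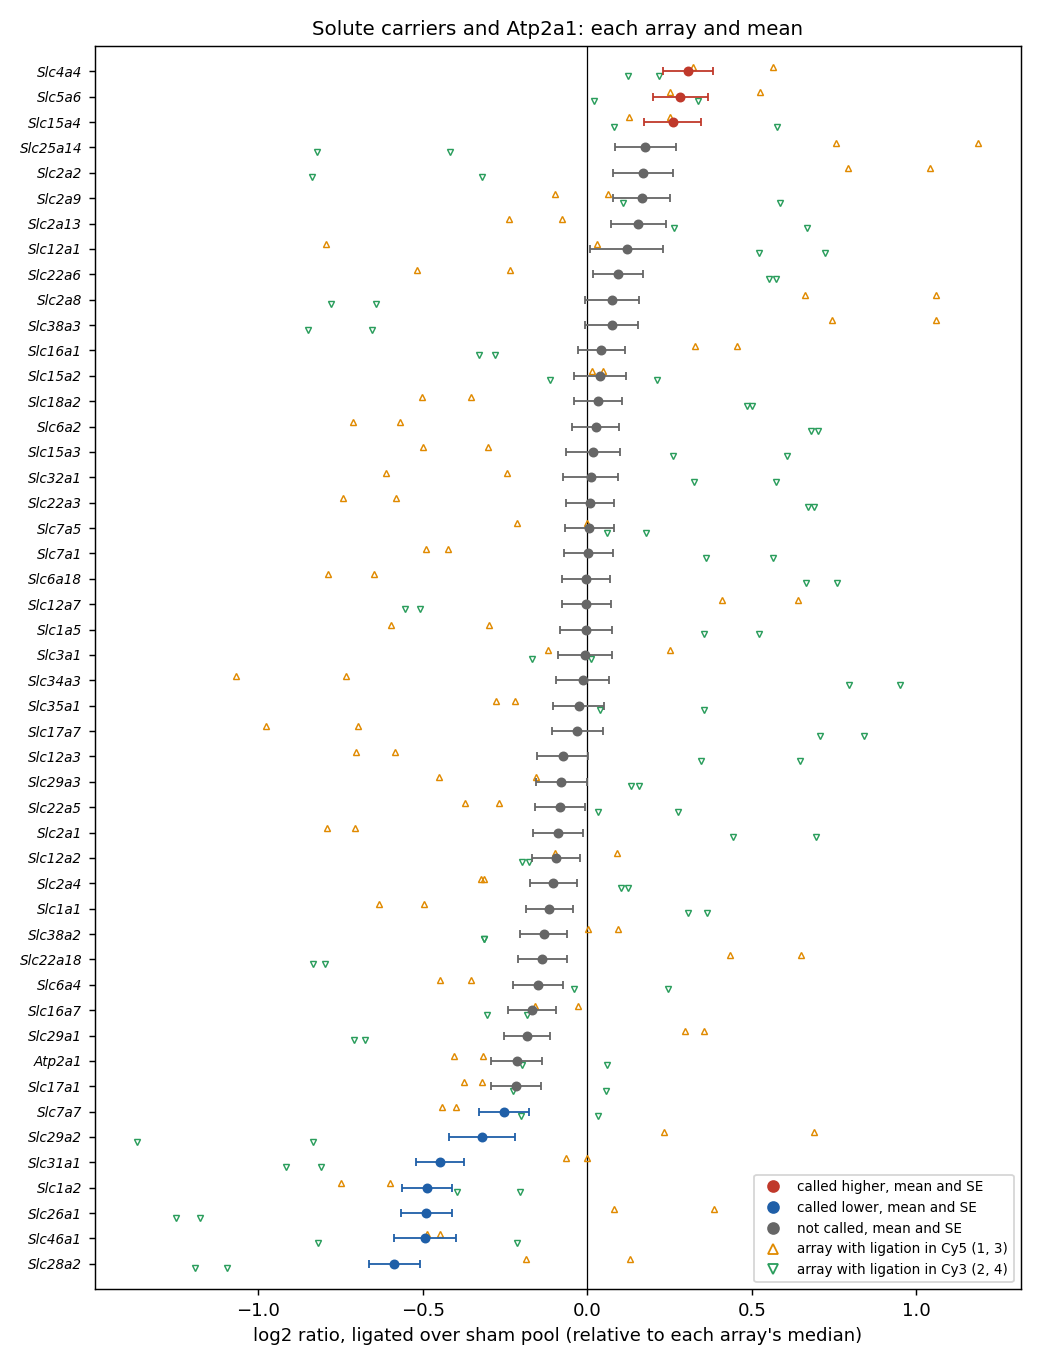
Log2 ratio of the ligated over the sham pool for the 48 genes, ordered by mean. Filled circles are means of the 4 arrays, with limma's SE after the difference between the dye orientations is fitted. Upward triangles are arrays 1 and 3 (ligation in Cy5) and downward triangles arrays 2 and 4 (ligation in Cy3). The means run from -0.59 for Slc28a2 to 0.31 for Slc4a4, and for 31 of the 48 genes (64.6%, against 68.4% of all genes) the 2 kinds of triangle lie on opposite sides of 0.

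Among 12 carriers of organic ions, nucleosides and vitamins, 3 were lower, none was higher and 9 did not pass (10 of the 48 genes passed in all, 20.8%, against a background of 27.1%). Slc28a2, a sodium-coupled carrier that takes up purine nucleosides, was at 0.13, -1.19, -0.19 and -1.09 on arrays 1 to 4. Its ratio was far below 0 on the arrays with ligation in Cy3 and near 0 on the other 2, with a mean of -0.59 ± 0.08 (limma adjusted p = 9.09e-05). Here and below, ± is limma's SE over 4 arrays after the difference between the 2 dye orientations is fitted. Its variance is drawn partly from all features. The plain SD of the 4 arrays of Slc28a2 was 0.66. Slc46a1, a proton-coupled carrier of folate that can also carry heme, was at -0.49, -0.21, -0.45 and -0.82. It was below 0 on each array, with a mean of -0.49 ± 0.09 (limma adjusted p = 0.00145).

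Slc29a2, which lets nucleosides equilibrate across the membrane, was at 0.69, -1.37, 0.23 and -0.83. The 2 dye orientations lay on opposite sides of 0, and the mean was -0.32 ± 0.10 (limma adjusted p = 0.0296). Leaving out array 2 (-0.19) or array 3 (-0.21) ended the call, with adjusted p = 0.286 and 0.266. Print-block centring (adjusted p = 0.0815) and centring on the named probes (adjusted p = 0.0635), both at -0.29, ended it too. The other equilibrative carriers were Slc29a1 at -0.18 ± 0.07 and the intracellular Slc29a3 at -0.08 ± 0.08, neither of which passed.

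The other 7 genes of this class did not pass. The lactate and pyruvate carrier Slc16a1 was at 0.04 ± 0.07, with its 95% interval from -0.11 to 0.20, and its relative Slc16a7 was at -0.17 ± 0.07 with all 4 arrays below 0. The carnitine carrier Slc22a5 was at -0.08 ± 0.08, and the organic cation carrier Slc22a3 was at 0.01 (0.00955) ± 0.07. Slc22a6, the organic anion carrier best known from kidney, was at 0.09 ± 0.08, Slc22a18 at -0.14 ± 0.07 and the Golgi sialic acid donor carrier Slc35a1 at -0.03 ± 0.08. The lowest of these adjusted p values was 0.112 by limma, for Slc16a7.

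Among 8 carriers of inorganic ions and metals, 2 were lower, 1 was higher and 5 did not pass. Slc26a1, which exchanges sulfate for other anions and is known from liver and kidney, was at 0.39, -1.18, 0.08 and -1.25 on arrays 1 to 4. Its mean was -0.49 ± 0.08 (limma adjusted p = 0.000357), with the whole decrease on the arrays with ligation in Cy3. Slc31a1, the high-affinity copper uptake carrier CTR1, was read by 4 probes whose mean was at -0.0016, -0.81, -0.06 and -0.92. All 4 probes passed by themselves, between -0.49 and -0.37, and the gene was at -0.45 ± 0.07 (limma adjusted p = 0.000408).

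Slc4a4, the sodium bicarbonate cotransporter that takes part in pH control and bicarbonate secretion, was at 0.32, 0.22, 0.56 and 0.12. It was above 0 on each array, at 0.31 ± 0.08 (limma adjusted p = 0.00772). Leaving out array 2 gave 0.28 and ended the call (adjusted p = 0.0574), and without centring Slc4a4 was at -0.07 (-0.0741). The sodium-potassium-chloride cotransporters Slc12a2 and Slc12a1 were at -0.10 ± 0.07 and 0.12 ± 0.11. Slc12a1, known mainly from kidney, ranged from -0.80 to 0.72 over the arrays, and without array 3 it was called higher (0.33, adjusted p = 0.0242 by limma). The thiazide-sensitive Slc12a3 was at -0.07 ± 0.08, the potassium-chloride cotransporter Slc12a7 at -0.0027 ± 0.07 and the phosphate carrier Slc34a3 at -0.01 ± 0.08, and none of them passed.

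The promoters of 4 called genes are shown, to set side by side 3 genes that stayed called lower with each array left out in turn (Slc28a2, Slc26a1 and Slc31a1) and the highest gene of the set, Slc4a4. Slc46a1 and Slc1a2 also stayed called lower in this way, and their promoters are not shown. Each is the 250 bases before the RefSeq start in assembly GRCr8, on the strand of the gene, with capitals for any match to 5 short motifs on either strand.
Slc28a2 (chr3:129819538-129819787, plus strand): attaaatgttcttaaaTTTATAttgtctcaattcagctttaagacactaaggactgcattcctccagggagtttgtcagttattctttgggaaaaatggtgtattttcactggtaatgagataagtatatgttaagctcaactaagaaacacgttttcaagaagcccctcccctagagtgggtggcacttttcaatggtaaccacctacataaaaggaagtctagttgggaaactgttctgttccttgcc
Slc26a1 (chr14:1184721-1184970, plus strand): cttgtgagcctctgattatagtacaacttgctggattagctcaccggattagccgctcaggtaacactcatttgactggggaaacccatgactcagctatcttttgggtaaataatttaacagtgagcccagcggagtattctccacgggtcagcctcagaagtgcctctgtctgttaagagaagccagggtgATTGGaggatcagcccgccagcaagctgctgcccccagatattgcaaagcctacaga
Slc31a1 (chr5:80830590-80830839, plus strand): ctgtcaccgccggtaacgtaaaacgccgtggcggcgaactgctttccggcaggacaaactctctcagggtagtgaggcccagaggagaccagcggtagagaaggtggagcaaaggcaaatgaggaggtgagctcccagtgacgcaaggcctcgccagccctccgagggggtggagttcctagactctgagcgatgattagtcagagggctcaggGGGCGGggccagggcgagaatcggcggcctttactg
Slc4a4 (chr14:19468283-19468532, minus strand): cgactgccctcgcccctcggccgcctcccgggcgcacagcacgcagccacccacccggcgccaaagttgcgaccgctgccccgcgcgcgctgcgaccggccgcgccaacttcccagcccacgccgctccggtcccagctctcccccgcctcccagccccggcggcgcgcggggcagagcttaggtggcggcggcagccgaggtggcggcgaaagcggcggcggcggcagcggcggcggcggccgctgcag

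The motifs were AGGTCA (a half-site of nuclear receptors), GTTAAT (a half-site of the hepatocyte factor HNF1), CCAAT, the GC box GGGCGG and TATAAA. In these 4 sequences the capitals are 1 reverse TATAAA in Slc28a2, 1 reverse CCAAT in Slc26a1 and 1 GGGCGG in Slc31a1, 36 bases before the start, and Slc4a4 held none of the 5. Of 42 promoters listed for 40 of the 48 genes, 50% held GGGCGG, against 30.5% of 33469 rat promoters, and 11.9% held AGGTCA, against 14.1%. CCAAT was in 33.3% against 34%, TATAAA in 7.14% against 12.9%, and GTTAAT in 4.76% against 6.45%. A match is a string of letters and not a shown binding site.

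Among 19 carriers of amino acids, peptides and neurotransmitters, 2 were lower, 1 was higher and 16 did not pass. Slc1a2, the sodium-coupled glutamate carrier known from astrocytes and from hepatocytes near the central vein, was at -0.60, -0.20, -0.75 and -0.40 on arrays 1 to 4. It was below 0 on each array, with a mean of -0.49 ± 0.08 (limma adjusted p = 0.00029). Slc7a7, the light subunit of an exchanger that releases cationic amino acids, was at -0.44, 0.03, -0.40 and -0.20. Its mean was -0.25 ± 0.07 (limma adjusted p = 0.023), and of its 3 probes 1 passed by itself, at -0.40, while the other 2 were at -0.18 and -0.17. Leaving out array 1 (-0.24), array 3 (-0.26) or array 4 (-0.19) ended the call of Slc7a7, with adjusted p = 0.0722, 0.056 and 0.267.

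Slc15a4, which carries peptides and histidine out of lysosomes, was at 0.13, 0.58, 0.25 and 0.08. It was above 0 on each array, at 0.26 ± 0.09, and passed narrowly (limma adjusted p = 0.0426). Leaving out array 1 (0.29), array 2 (0.14) or array 3 (0.23) ended the call, with adjusted p = 0.101, 0.511 and 0.196. It also ended with print-block centring (0.14, adjusted p = 0.247) and with quantile normalization (adjusted p = 0.0622), and without centring Slc15a4 was at -0.12. Its relatives Slc15a2 and Slc15a3 were at 0.04 ± 0.08 and 0.02 ± 0.08.

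The other members of this class lay between -0.22 and 0.07 and did not pass. The nearest to the threshold was Slc17a1, a sodium-coupled phosphate and organic anion carrier, at -0.22 ± 0.08 (limma adjusted p = 0.0532), which passed with quantile normalization (adjusted p = 0.0471) and with scaling by the median absolute deviation (adjusted p = 0.0451). The glutamate carrier Slc1a1 was at -0.11 ± 0.07, and Slc1a5, a carrier of neutral amino acids, was at -0.0038 ± 0.08. The glutamine carriers Slc38a2 and Slc38a3 were at -0.13 ± 0.07 and 0.07 ± 0.08. The cationic amino acid carrier Slc7a1 was at 0.0041 ± 0.07, with a 95% interval from -0.16 to 0.17, the light subunit Slc7a5 at 0.0067 ± 0.08 and the heavy subunit Slc3a1 at -0.0056 ± 0.08.

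The Slc6 family and the vesicle carriers of neurotransmitters lay between -0.15 and 0.03 after the dyes were averaged, and none of them passed. The glutamate carriers Slc1a2, which was called lower, and Slc1a1 are given above and are not in this range. The noradrenaline carrier Slc6a2 was at 0.03 ± 0.07, the serotonin carrier Slc6a4 at -0.15 ± 0.08 and the kidney carrier Slc6a18 of the same family at -0.0026 ± 0.07. The vesicle carriers Slc17a7 for glutamate, Slc18a2 for monoamines and Slc32a1 for GABA were at -0.03 ± 0.08, 0.03 ± 0.07 and 0.01 ± 0.08. Slc17a7 was at -0.70, 0.71, -0.97 and 0.84 on arrays 1 to 4, below 0 where ligation was in Cy5 and above 0 where it was in Cy3. Slc6a4 split less fully, at -0.35, 0.25, -0.45 and -0.04, averaging -0.40 on arrays 1 and 3 and 0.10 on arrays 2 and 4. Of its 3 probes, those with means of -0.20 and -0.02 split by dye on all arrays, and the one at -0.23 did not.

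Of 7 genes in the sugar carrier families, 1 was higher and 6 did not pass. The higher one was Slc5a6, a member of the sodium-glucose family that carries biotin and pantothenate, at 0.25, 0.34, 0.53 and 0.02 on arrays 1 to 4. It was above 0 on each array, with a mean of 0.28 ± 0.08 (limma adjusted p = 0.0211). Leaving out array 2 (0.20) or array 3 (0.21) ended the call, with adjusted p = 0.222 and 0.139, and without centring Slc5a6 was at -0.10. No glucose carrier passed. Slc2a2 (GLUT2), the main glucose carrier of hepatocytes, was at 1.04, -0.84, 0.79 and -0.32, and its mean of 0.17 ± 0.09 had a 95% interval from -0.03 to 0.37. It was called higher only when array 2 was left out (0.30, adjusted p = 0.0415 by limma), among the arrays left out in turn.

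Slc2a1 (GLUT1), widely expressed, was at -0.09 ± 0.08, the insulin-responsive Slc2a4 (GLUT4) at -0.10 ± 0.07 and the intracellular Slc2a8 at 0.08 ± 0.08. The urate carrier Slc2a9 was at 0.17 ± 0.09 and the inositol carrier Slc2a13 at 0.15 ± 0.08. The mitochondrial carrier Slc25a14, an uncoupling protein family member, was the only gene of its family named on the array, at 0.18 ± 0.09. Atp2a1, the calcium pump of the sarcoplasmic reticulum of fast muscle, was the only pump, at -0.21 ± 0.08 (limma adjusted p = 0.0526), and it passed with quantile normalization (adjusted p = 0.0429) and with scaling by the median absolute deviation (adjusted p = 0.0449).

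With the ratio read as ligation over sham, the dye a pool carried went with a larger difference than ligation did for most of the genes. In the fit, the dye term is positive where a gene read higher with ligation in Cy5. It was larger in size than the ligation term for 35 of the 48 genes (72.9%, against 78.2% of all genes) and passed for 35 of 48 (72.9%, against 78%). Of these 35, 22 had a negative term (45.8% of the set, against 32.8% of all genes) and 13 a positive one. The lowest dye term was that of Slc34a3 at -0.89, and the highest was that of Slc38a3 at 0.83. Read as Cy5 over Cy3, the 2 terms change places, and these dye terms would be the differences that went with ligation. Without a dye term in the model, limma called 0 of the 48 genes and 0 of all 958, and 2 of the 48 had an unadjusted p under 0.05.

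**Figure D2:**
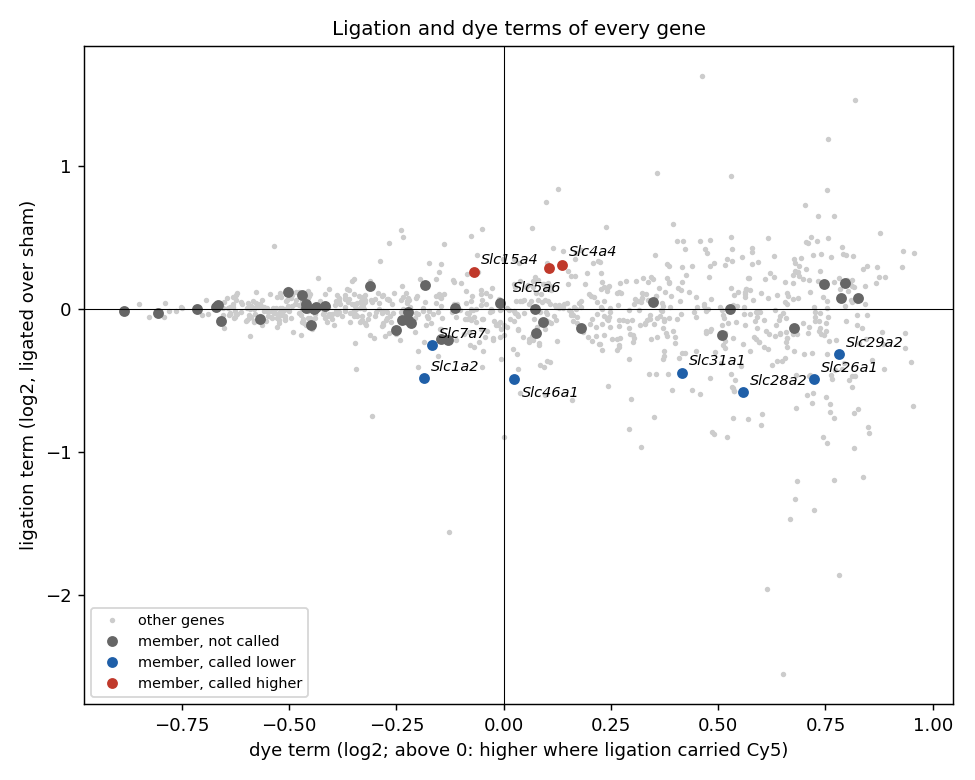
Ligation term against dye term (both log2) for each of the 958 genes, with the 48 genes as large points. Ligation terms spread more widely to the right, and Slc28a2, Slc26a1, Slc29a2 and Slc31a1 lie on the right side. Slc46a1, Slc1a2, Slc7a7 and the 3 higher genes lie between dye terms of -0.19 (Slc1a2) and 0.14 (Slc4a4). The dye term of Slc1a2 passed (limma adjusted p = 0.0364).

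The share of called genes moved with the dye term. In the quartile of all genes with the lowest dye terms, up to -0.31, 2.08% of 240 genes were called, and 0 of the 15 set members there were called, all within 0.12 of 0. In the next quartile, 4 of 18 members passed (22.2%, against 21.8% of all genes), and in the third quartile 3 of 6 (50%, against 36%). In the highest quartile 3 of 9 members passed (33.3%, against 48.8% of 240 genes). The lower 2 quartiles held 33 of the 48 genes, and what the dye term stands for was not tested.

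Of the 10 called genes, 6 had the same sign on all 4 arrays, namely Slc46a1, Slc1a2 and Slc31a1 below 0 and Slc4a4, Slc5a6 and Slc15a4 above it. With Slc16a7, which did not pass, 7 of 48 genes had the same sign throughout (14.6%, against 12.6% of all genes), 3 above 0 (6.25% against 5.53%) and 4 below (8.33% against 7.1%). The other 4 called genes had values of both signs. Slc28a2 averaged -0.03 on arrays 1 and 3 and -1.14 on arrays 2 and 4, and Slc26a1 averaged 0.23 and -1.21. Slc29a2 averaged 0.46 and -1.10, while Slc7a7 was lower on arrays 1 and 3, at -0.42, than on arrays 2 and 4, at -0.08. Slc31a1 averaged -0.03 and -0.86, and its single sign rests on the mean of its probes: 2 of the 4 were above 0 on arrays 1 and 3, 1 at 0.14 and 0.04, the other at 0.42 and 0.30. Reading their means as decreases takes the dye shift to be equal and opposite in the 2 orientations, which was not tested.

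The direction of the ratio matters most for these genes. Read as Cy5 over Cy3, Slc28a2 would be at 0.56, Slc26a1 at 0.72, Slc29a2 at 0.78 and Slc31a1 at 0.41, each called higher, while Slc46a1 would be at 0.02 (0.025), not called, and Slc1a2 at -0.19 and still called lower. Under that reading 13 of the 48 genes would be higher and 22 lower, where 45.2% and 32.8% of all genes would be. These are the same genes whose dye terms passed when the ratio was read as ligation over sham. Of the 10 called genes, only Slc1a2 kept its direction and its call when read as Cy5 over Cy3. The zero point matters as well: without centring, 0 of the 48 genes were higher by limma, also at an unadjusted p under 0.05, and 41 were lower, where 1.15% and 82.6% of all genes were (83.7% in either direction). With the zero point set on probes of the highest dye-term quartile, a setting added after seeing the data, Slc29a2 (-0.25), Slc7a7 (-0.18), Slc15a4 (0.33) and Slc5a6 (0.36) lost their calls.

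**Figure D3:**
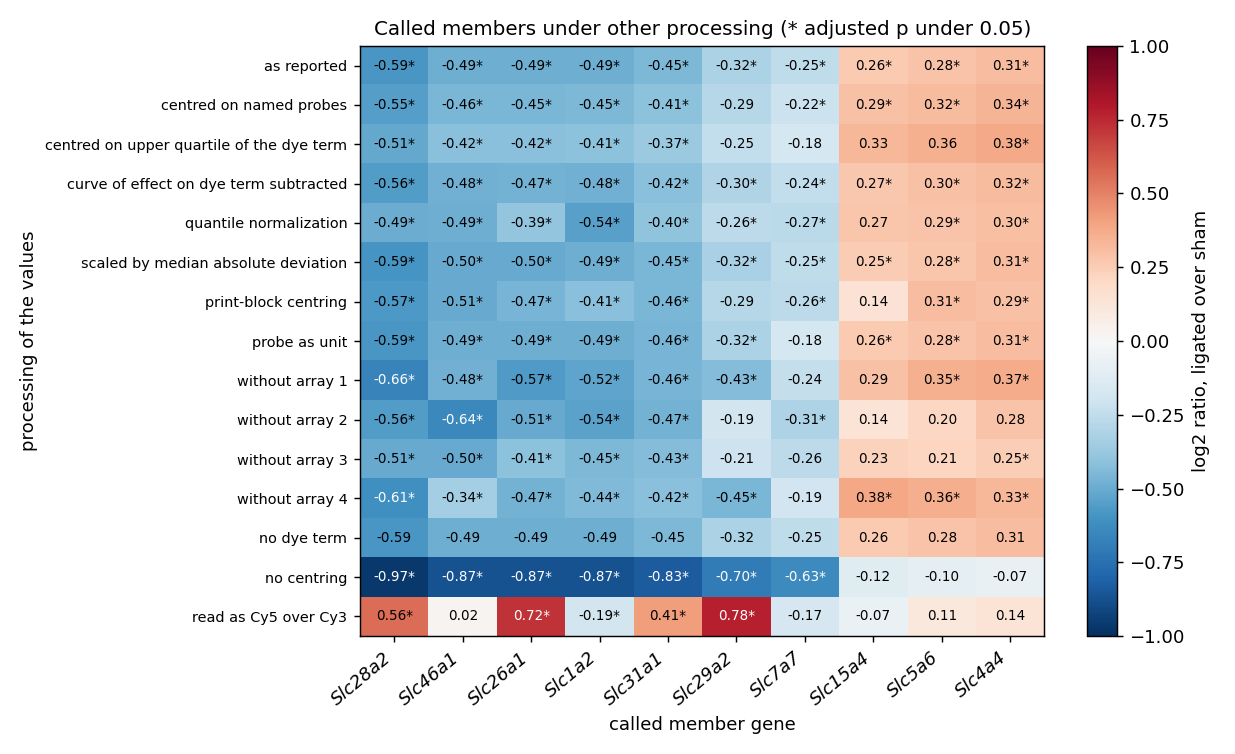
Log2 ratio (colour and number) of the 10 called genes in columns under each processing of the values in rows, with an asterisk where limma's adjusted p was under 0.05. Slc28a2, Slc46a1, Slc26a1, Slc1a2 and Slc31a1 keep an asterisk and a negative value in every row except the one without a dye term, where no gene has one, and the one read as Cy5 over Cy3, where only Slc1a2 does so.

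For 13 of the genes, several probes gave repeat readings on the same arrays. As single probes, 18 of the 85 passed (21.2%, against 27% of 1432 named probes). The 4 probes of Slc31a1 lay within 0.12 of each other, the 5 of Slc16a1 within 0.11 and the 3 of Slc22a18 within 0.05. Slc2a4 had the widest range, with 1 probe at -0.58 (limma adjusted p = 6.13e-05 over probes) and the other 4 between -0.06 and 0.14. Slc38a3 had 2 probes called higher, at 0.32 and 0.39, while its other 3 lay between -0.25 and 0.03, and Slc38a2 had 1 called lower, at -0.45, with the others between -0.20 and 0.04. One probe of Slc22a6 was called higher at 0.32, and the other 2 were at -0.05 and 0.0066. In all, 4 of the 11 uncalled genes with several probes had a called probe. The same share over all genes was not computed, so this count cannot be set against a background. Whether these called probes read other transcripts was not tested.

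**Figure D4:**
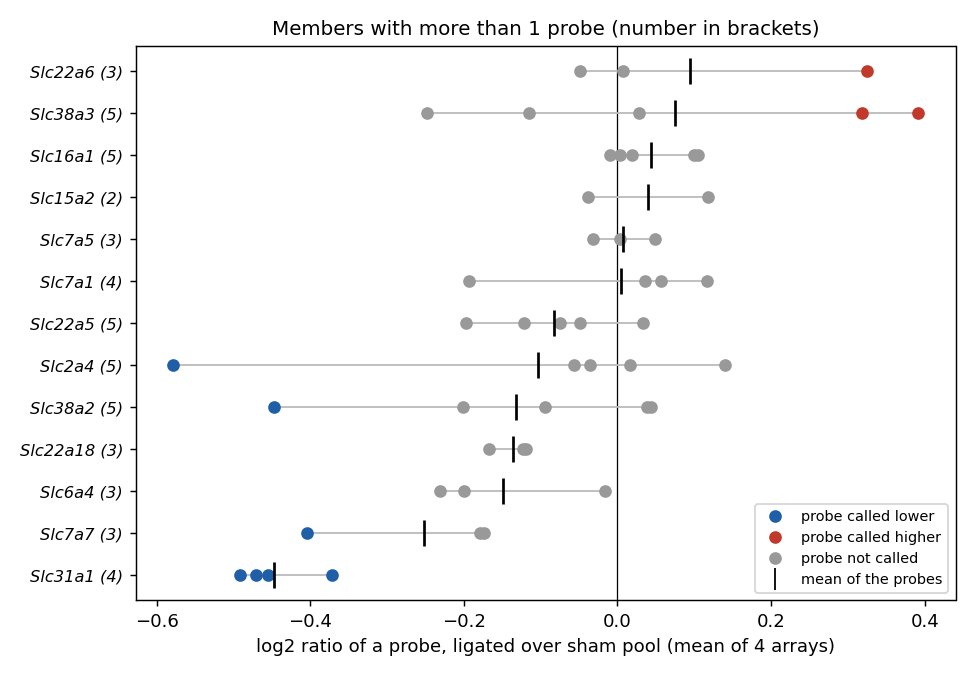
Log2 ratio of each probe (mean of 4 arrays) for the 13 genes read by more than 1 probe, coloured by limma's call over probes, with the mean of the probes as a bar. The probes of Slc31a1 lie together between -0.49 and -0.37, and those of Slc2a4 spread from -0.58 to 0.14.

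A list of 17 other channels, pores and receptor channels on the array held no called gene (0 of 17 by limma, 2 of 17 with an unadjusted p under 0.05), where the background was 27.1%. It covered the water channel Aqp1 at -0.02 ± 0.09, the calcium release channels Itpr1 at -0.09 ± 0.07 and Ryr1 at 0.04 ± 0.08, and the ATP-gated P2rx1 at 0.19 ± 0.08 and P2rx4 at 0.18 ± 0.08, and it ran from -0.11 to 0.19. Of these 17 genes, 14 had a negative dye term that passed (background 32.8%), and their median dye term was -0.48. In the quartile of all genes with the lowest dye terms, up to -0.31, 2.08% were called. The background of 27.1% is therefore not one of genes with like dye terms. Cell type markers were also read as ratios. Of 5 hepatocyte markers with a named probe (8 were listed) 4 were higher (Apoa1, Tf, Ttr and Serpina1, from 0.20 to 0.38). Both leukocyte markers with a named probe (10 were listed) were lower (Ccl5 -0.33, Cd53 -0.27). Of 3 endothelial markers (5 were listed) 2 were lower (Ece1 -1.18, Kdr -0.33), and Cdh5 was at 0.09 and did not pass. Of all genes, 11.7% were higher and 15.4% lower. The median dye term was 0.63 for the hepatocyte markers and 0.32 for the leukocyte markers. In the dye-term quartiles of all genes that hold these medians, 48.8% and 36% were called in either direction. The shares over all genes are therefore not those of genes with like dye terms here either. Without centring all genes shifted by -0.38, and none of the 4 higher hepatocyte values exceeds that shift. Of 3 stellate cell markers Timp1 was higher and Col1a1 lower, and the 2 markers of cholangiocytes and the single markers of blood cells and neurons did not pass. The part of these markers in the carriers' values was not tested. None of the 8 listed muscle markers had a named probe.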

How the data were processed

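The 4 deposited columns hold log2 ratios, 1 per probe and array, taken to base 2. Per the labels, pooled liver RNA was labelled with Cy3 or Cy5 and hybridised to cDNA arrays. The authors' scanning, background correction and normalization were not given in the sources used here. Names came from the platform's probe table, and all 48 symbols matched RefSeq (GRCr8). Each array was centred on its median, 288 spots at 18 positions unnamed in all 16 print blocks were left out as presumed controls, and probes of 1 symbol were averaged. The ligation and dye terms were fitted with limma 3.58.1 in R 4.3.3 (lmFit, eBayes) over 1174 features, with Benjamini-Hochberg adjustment over all of them, and a gene past 0.05 was called. The fit was also run on simulated data with independent noise and a dye shift equal and opposite in the 2 orientations. That simulation cannot test whether the dye shift of the real arrays is equal and opposite. Alternatives covered centring, scaling, print blocks, direction, dye term, probe averaging, prior, controls and each array left out. Named in full are called genes, genes at 1.5-fold, genes whose probes differ by 1 or more (none did) and listed liver carriers; the other members are given briefly. Members and lists were chosen with earlier results of these data known. The number of arrays limits the precision (median SE 0.08, limma's moderated SE with 2 residual and 10.4 prior degrees of freedom).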

Additional observations from a re-analysis of the deposited data

How the results depend on the processing

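Of 10 called genes, 5 (Slc28a2, Slc46a1, Slc26a1, Slc1a2 and Slc31a1) kept direction and call under every alternative except no dye term and the Cy5 over Cy3 reading. Without a dye term no gene of the set was higher or lower (0 and 0, with 0 of all genes; at unadjusted p under 0.05, 2 of 48 and 52 of 958 by limma). Without centring, all genes shifted by -0.38, 0 genes of the set were higher (0 also at unadjusted p), 41 were lower and 802 of all genes passed, and values called on either side changed sign for Slc12a1 (-0.26), Slc15a2 (-0.34), Slc15a3 (-0.36), Slc15a4 (-0.12), Slc16a1 (-0.34), Slc18a2 (-0.35), Slc22a3 (-0.37), Slc22a6 (-0.29), Slc2a8 (-0.31), Slc32a1 (-0.37), Slc38a3 (-0.31), Slc4a4 (-0.0741), Slc5a6 (-0.10), Slc6a2 (-0.36), Slc7a1 (-0.38) and Slc7a5 (-0.37). Read as Cy5 over Cy3, 13 were higher, 22 lower and 747 of all genes passed, and signs changed for Slc12a1 (-0.50), Slc12a7 (0.53), Slc15a3 (-0.42), Slc15a4 (-0.0694), Slc18a2 (-0.46), Slc22a18 (0.68), Slc22a3 (-0.67), Slc22a6 (-0.47), Slc26a1 (0.72), Slc28a2 (0.56), Slc29a1 (0.51), Slc29a2 (0.78), Slc2a13 (-0.31), Slc31a1 (0.41), Slc32a1 (-0.44), Slc38a2 (0.18), Slc46a1 (0.025), Slc6a2 (-0.67) and Slc7a1 (-0.46). With 1 array left out, 1 to 3 genes of the set were higher, 5 to 6 lower and 191 to 240 of all genes passed. After seeing the data, 2 settings were added: centring on probes of the highest dye-term quartile gave 1 higher and 5 lower, losing Slc15a4, Slc29a2, Slc5a6 and Slc7a7, and subtracting the curve of effect on dye term kept all 10. Taking the probe as the unit lost Slc7a7 (-0.18). Quantile normalization gave 2 higher and 9 lower, losing Slc15a4, with 241 of all genes called. Scaling gave 3 higher and 9 lower, with 275 of all genes called. Both gained Atp2a1 and Slc17a1. The robust prior and kept control positions changed no call in the set. The cause was not tested for any of these. Each array holds both pools, so the ratio on an array is itself a paired comparison, and no further pairing was made. Signal over background is unknown.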

Other observations

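Some probes of the same gene differed in dye term and had like ligation terms, and others did not. In 8 of the 13 genes with several probes, the probes had dye terms of both signs, although those of Slc15a2 were only -0.02 (-0.0233) and 0.0045. The 5 probes of the lactate carrier Slc16a1 had dye terms from -0.73 to 0.75, a range of 1.47, and their ligation terms lay within 0.11. The probes of the amino acid carrier subunit Slc7a5 ranged over 0.99 in dye term and over 0.08 in ligation term, and those of the copper carrier Slc31a1 over 0.75 and 0.12. The glucose carrier Slc2a4 ranged over 1.11 in dye term and 0.72 in ligation term, and the glutamine carrier Slc38a2 over 1.40 and 0.49. Slc38a3, with 0.33 in dye term and 0.64 in ligation term, and Slc15a2, with 0.03 and 0.16, had the wider range in the ligation term. The 4 arrays are shared by all probes, so these are descriptions of 1 pair of pools.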
